A study of Homo sapiens with 2 samples.

Results

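Serine synthesis and folate one-carbon enzymes are 9 genes taken from the deposited table by name: PHGDH, PSAT1 and PSPH of the serine pathway, SHMT1 and MTHFD1 of the cytosolic folate cycle, and SHMT2, MTHFD2, MTHFD1L and ALDH1L2 of the mitochondrial one. All 9 were among the 15603 genes listed. RNA was sequenced from A172 cells, an established line of human glioblastoma. The parental library came from cells labelled as kept without temozolomide (TMZ), an alkylating drug used against this tumour, and the resistant library from the clone A172R6, selected by TMZ and, by its label, cultured in its presence. With 1 library per group, and a single clone on the resistant side, the clone, its selection and the drug exposure cannot be told apart, and no difference below has a replicate check or a p-value computed here. Levels are FPKM, which count fragments relative to transcript length and to the size of the library. They may be set side by side between genes, and the depth behind them is unknown. In bulk RNA such as this, more cells that express a gene and more RNA per cell cannot be told apart.

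Cells make serine from the glycolytic intermediate 3-phosphoglycerate. PHGDH oxidises it, PSAT1 transfers an amino group to the product and PSPH removes the phosphate. A serine hydroxymethyltransferase then moves the side chain carbon of serine onto tetrahydrofolate and leaves glycine. The mitochondrial cycle, with SHMT2, MTHFD2 and MTHFD1L, mostly turns this carbon into formate, which leaves for the cytosol, where MTHFD1 loads it back on folate for purine, thymidylate and methionine synthesis. Several of these genes are known targets of ATF4, the transcription factor of the integrated stress response, and the mitochondrial enzymes are often abundant in tumour cells.

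All 9 genes had a higher value in the resistant library, as did 53.3% of all tested genes. The log2 fold is log2 of (resistant FPKM + 1) over (parental FPKM + 1), and a gene was called when the fold was at least 2 in either direction, among the 13937 genes with 1 FPKM or more in either library. All 9 passed this filter, in both libraries. By this rule 1 of the 9, MTHFD1L, was called higher and none was called lower, where 4.59% of all tested genes were called higher and 3.82% lower. At 1.5-fold, 5 of the 9 were higher and none lower, beside 14.5% and 12% of all tested genes. These were MTHFD1L, PSAT1, PSPH, MTHFD2 and SHMT2. The 9 genes were chosen with earlier results of these data known, so these counts give no independent support. The median log2 fold of the 9 was 0.62, and that of all tested genes was 0.04. By role, the serine pathway summed to 218 FPKM in parental cells and 402 in the clone, the mitochondrial folate enzymes to 169 and 288, and the cytosolic ones to 34.8 and 38.6. The mitochondrial sum hides a spread, since ALDH1L2, at about 1 FPKM, had a log2 fold of 0.08. At that level the added 1 FPKM understates the fold. The plain ratio was 1.11 for ALDH1L2 and 1.09 for SHMT1.

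**Figure D1:**
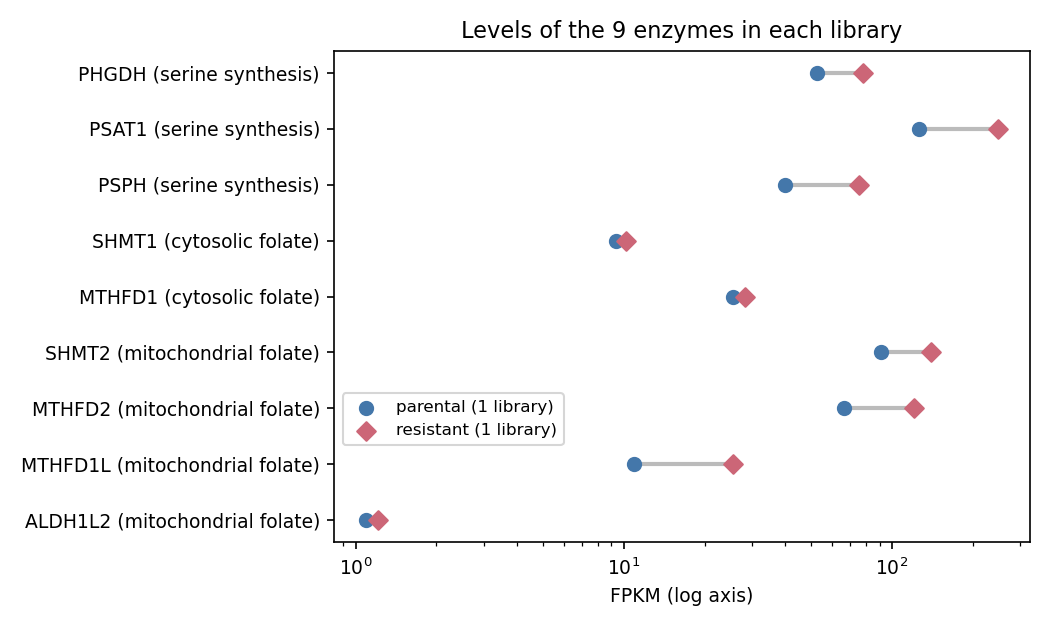
FPKM of each enzyme gene on a log axis, with a circle for the parental and a diamond for the resistant library (1 library each, no error bars), and the role of each enzyme in brackets. The diamond lies to the right of the circle in all 9 rows, by the widest gap for MTHFD1L (10.9 and 25.4 FPKM) and by narrow gaps for SHMT1, MTHFD1 and ALDH1L2.

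PSAT1, phosphoserine aminotransferase, was the most abundant of the 9 in both libraries. It had 126 FPKM in parental cells and 249 in the clone, a log2 fold of 0.97 and a plain ratio of 1.97. That is just under the threshold, and 4.94% of the tested genes had a log2 fold as high or higher. By level it moved from rank 291 to rank 124 among the listed genes. PSPH, the phosphatase of the last step, had 39.8 and 75.1 FPKM (log2 fold 0.90), also short of 2-fold. PHGDH, the first enzyme and a known point of control of the pathway, had 52.4 and 78.1 FPKM (log2 fold 0.57), the lowest fold of the trio. PSAT1 thus stood at 2.41 times the level of PHGDH in the parental and 3.18 times in the resistant library, and PSPH at 0.76 and 0.96 times.

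Among the mitochondrial enzymes, MTHFD1L was the gene past the threshold. MTHFD1L is the formate-producing 10-formyltetrahydrofolate synthetase of mitochondria. It had 10.9 FPKM in parental cells and 25.4 in the clone, a log2 fold of 1.15, and 3.01% of the tested genes had one as high or higher. MTHFD2, the dehydrogenase and cyclohydrolase before it in the cycle, had 66.3 and 121 FPKM (log2 fold 0.86). SHMT2, which feeds the cycle from serine, had 90.8 and 140 FPKM (0.62). ALDH1L2, which oxidises 10-formyltetrahydrofolate to carbon dioxide and so competes with MTHFD1L for its substrate, was near the floor of the table at 1.09 and 1.22 FPKM (0.08). The mitochondrial enzymes were thus unlike each other in level, with MTHFD2 at 60.6 times ALDH1L2 in the parental and 99.7 times in the resistant library. With ALDH1L2 so low and the depth unknown, that ratio and its rise are not secure.

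The cytosolic enzymes differed little between the libraries. SHMT1 had 9.39 FPKM in parental cells and 10.2 in the clone (log2 fold 0.11). MTHFD1, a trifunctional enzyme that carries the activities of MTHFD2 and MTHFD1L in a single cytosolic protein, had 25.4 and 28.4 FPKM (0.15). For SHMT1, 44.4% of the tested genes had a log2 fold as high or higher, and for MTHFD1 41.3%. The reference genes spread more widely than this: the log2 folds of 15 such genes ran from -0.74 to 0.61, with a median of 0.09 and none called. That range does not set the cytosolic enzymes apart. PHGDH (0.57) also lay within it, and SHMT2 (0.62) was just above its upper end.

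Within each library, the mitochondrial gene was therefore set against its cytosolic counterpart, a ratio that no rescaling of the library alters. SHMT2 stood at 9.67 times SHMT1 in the parental and 13.7 times in the resistant library, a change of 1.41-fold. MTHFD1L stood at 0.43 times MTHFD1 in the parental and 0.90 times in the resistant library, a change of 2.10-fold. MTHFD2 was also compared with MTHFD2L, a second mitochondrial dehydrogenase of the same reaction, which had 4.95 FPKM in parental cells and 3.29 in the clone (log2 fold -0.47). The ratio of MTHFD2 to MTHFD2L was 13.4 and 36.9, a change of 2.75-fold. Against the cytosolic MTHFD1, MTHFD2 stood at 2.61 times in the parental and 4.27 times in the resistant library, a change of 1.64-fold. In each of these pairs the ratio was higher in the resistant library, which follows from the folds already given. No replicate shows how far such ratios vary.

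**Figure D2:**
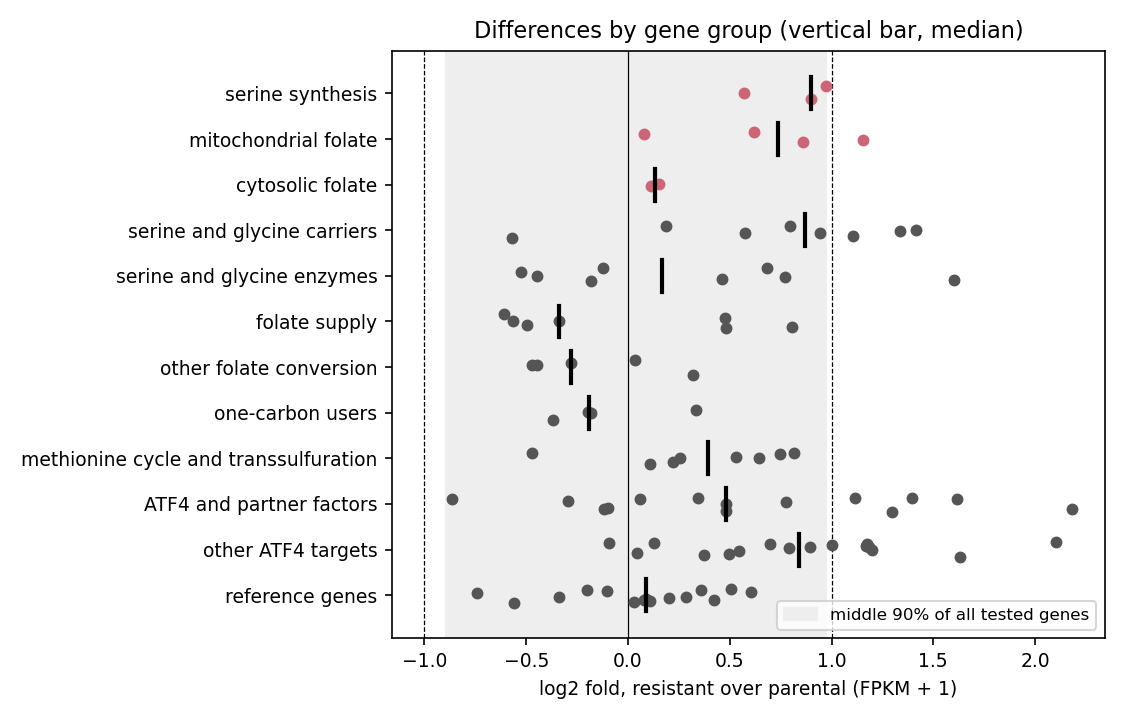
Log2 fold of each tested gene (points) by group, with the 9 enzymes in red, other genes in grey, the group median as a vertical bar, dashed lines at 2-fold and a grey band over the middle 90% of all tested genes (-0.90 to 0.97). Serine synthesis (median 0.90), the mitochondrial folate enzymes (0.74) and the serine and glycine carriers (0.87) lie to the right of the cytosolic folate enzymes (0.13) and of folate supply (-0.34).

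Sequences before a RefSeq start are shown for the called gene MTHFD1L, for PSAT1 at the highest level, and for SHMT1, which differed little. RefSeq promoter windows of 250 bases before to 50 after the start (GRCh38.p14) were held for 6 of the 9 genes: PHGDH, PSAT1, MTHFD2, MTHFD1L, MTHFD1 and SHMT1. PSPH, SHMT2 and ALDH1L2 had none. The stretches below run 5′ to 3′ on the strand of the gene and lie outside annotated exons. Capitals mark CCAAT, a common promoter box, or its reverse complement ATTGG. They lie at chr6:150866133-150866332 (plus strand) for MTHFD1L, before the RefSeq start at 150866333 but within the gene as GENCODE gives it, chr9:78296925-78297124 (plus strand) for PSAT1 and chr17:18363564-18363763 (minus strand) for SHMT1.
MTHFD1L: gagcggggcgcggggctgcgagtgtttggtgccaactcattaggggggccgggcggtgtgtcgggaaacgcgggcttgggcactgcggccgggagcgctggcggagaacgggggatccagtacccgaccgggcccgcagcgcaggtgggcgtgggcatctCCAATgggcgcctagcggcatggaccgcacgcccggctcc
PSAT1: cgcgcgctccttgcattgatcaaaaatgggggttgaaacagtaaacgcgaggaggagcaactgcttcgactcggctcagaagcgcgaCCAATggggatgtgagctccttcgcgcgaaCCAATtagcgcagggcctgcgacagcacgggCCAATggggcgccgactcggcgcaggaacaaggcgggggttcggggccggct
SHMT1: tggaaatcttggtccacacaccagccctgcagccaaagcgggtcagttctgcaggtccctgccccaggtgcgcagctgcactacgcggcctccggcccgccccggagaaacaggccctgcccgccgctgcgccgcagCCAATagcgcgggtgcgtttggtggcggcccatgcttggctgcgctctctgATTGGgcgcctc
CCAAT was found on either strand in windows of all 6 genes, and in 34.6% of the 35116 promoter windows in the RefSeq table. PSAT1 carried it 3 times in the stretch shown, SHMT1 2 times counting both strands, and MTHFD1L a single time. So the box was present in genes of high and of low fold.

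The letters TGATGNAA, the core of the C/EBP-ATF response element that ATF4 is known to bind, were searched on both strands. They were found in windows of 1 of the 6 genes, MTHFD1L. By window they were in 3 of the 9, all at the same site of MTHFD1L, and in 3.62% of all windows. Only MTHFD1L had more than 1 window, and sites outside these short windows were not searched for any gene. The match lies 25 bases into the transcript that starts at 150866333 on chromosome 6 and before the start of others, and it is shown in capitals at chr6:150866346-150866375 (plus strand).
MTHFD1L element: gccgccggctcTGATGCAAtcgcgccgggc
The E-box CACGTG, the core of MYC binding sites, was found in windows of 2 of the 6 genes, MTHFD1L and MTHFD1. By window it was in 4 of the 9, and in 7.26% of all windows. The E-box thus occurred both in the gene with the highest fold and in a cytosolic gene that differed little. Such matches describe the letters, and binding was not measured.

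MTHFD1L spans 150865549 to 151101887 of chromosome 6 on the plus strand (GRCh38), and most of its neighbours had higher values in the resistant library. Of the 10 tested genes on each side, 5 had under 1 FPKM in parental cells and so passed the filter only through the resistant library, where they had to come out higher. These 5 include 4 of the 5 neighbours called higher, such as PLEKHG1 (0.259 and 1.80 FPKM) and RP1-292B18.1 (0.152 and 1.75), which lies inside MTHFD1L but shares none of its exon bases. The median log2 fold of 0.65 over all 20 is therefore no support. Among the 10 neighbours with a mean of 5 FPKM or more over both libraries, a limit chosen after seeing the data, 9 had a positive log2 fold, 1 was called higher and none lower. Their median was 0.46, beside 0.16 for genes of that level on the chromosome, and none was as high as the 1.15 of MTHFD1L. Among these, chosen after their values were seen, RMND1 had 9.45 and 20.2 FPKM, AKAP12 17.1 and 32.5, and SYNE1 34.5 and 52.3. The part of the neighbourhood in the value of MTHFD1L was not tested.

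The other 8 enzymes were read against their neighbours in the same way. Over neighbours with a mean of 5 FPKM or more, the median log2 fold was -0.15 around MTHFD2 on chromosome 2 (12 genes) and -0.14 around PSPH on chromosome 7 (10 genes), and none of these genes was as high as the enzyme. Around SHMT2 on chromosome 12 the median was 0.26 (14 genes), around PSAT1 on chromosome 9 it was 0.34 (13 genes) and around PHGDH on chromosome 1 it was 0.29 (8 genes), with 1 gene as high as the enzyme in each set. SHMT1 on chromosome 17 had neighbours with a median of 0.03 (12 genes). MTHFD1 on chromosome 14 lay below the median of its neighbours, 0.43 over 12 genes, which was close to that around MTHFD1L, and ALDH1L2 on chromosome 12 lay below 0.32 over 13 genes.

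**Figure D3:**
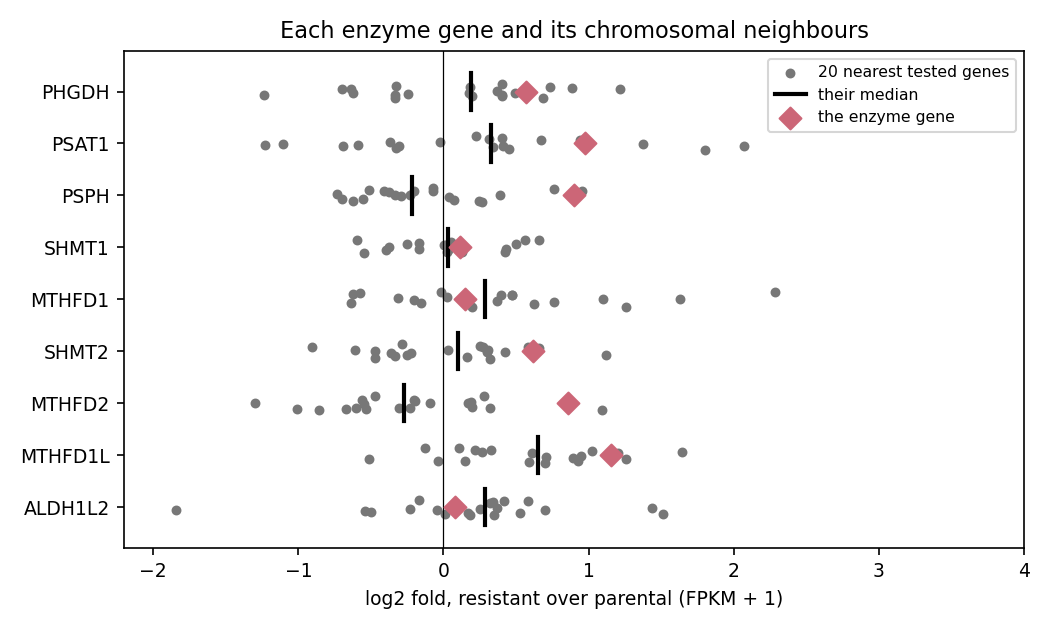
Log2 fold of each enzyme gene (red diamond), of the 10 tested genes on either side of it on its chromosome (grey points, spread vertically for legibility) and their median (black bar). The bar for MTHFD1L, at 0.65, includes 5 neighbours that passed the filter only through the resistant library, and the diamonds of MTHFD2 and PSPH stand well to the right of bars that lie below 0.

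Some of these values can share reads with other genes. MTHFD2 shares 27.2% of its exon bases with SLC4A5 on the opposite strand, which had 1.21 FPKM in parental cells and 0.497 in the clone, and whether strand was used in counting is not given in the sources used here. SLC4A5 was low beside MTHFD2 and differed in the other direction. Processed pseudogenes with 90% identity or more cover 50.9% of the PSAT1 transcript (PSAT1P3, 95.2% identical at most), 53.7% of that of SHMT1 (SHMT1P1, 91.1%), 39.9% of that of MTHFD1 (MTHFD1P1, 93.1%) and 21.9% of that of MTHFD2 (MTHFD2P7, 94.7%). PSPHP1 matches 258 bases of PSPH at 99.1%. The called gene MTHFD1L has 6 matching pseudogenes, which cover at most 7.46% of its transcript at up to 96.8% identity. Matches to other transcripts cover at most 4.53% of PHGDH and 1.66% of ALDH1L2. The values of these 8 genes are uncertain to that extent. No such sequence match was found for SHMT2. It does share 427 exon bases, 8.83% of its own, with AC137834.2 on the opposite strand, which was not listed. For 5 of the 9, the deposited locus is also that of another listed gene.

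In the authors' deposited table, q-values of their comparison of the 2 libraries ordered the genes differently from the folds. The authors' deposited table gave q-values under 0.05, a threshold chosen here, for 3 of the 9: SHMT2 (6.71e-05), MTHFD1L (0.00227) and PSPH (0.00744). None of the 9 was lower. Of all tested genes, 5.42% were higher and 4.07% lower with such a q-value. PSAT1, with the second highest fold of the 9, had a q-value of 0.0960 in the authors' deposited table, MTHFD2 had 0.0603 and PHGDH 0.389. SHMT1, MTHFD1 and ALDH1L2 had q-values of 0.868, 0.856 and 0.901 in the authors' deposited table. A test on 2 libraries compares those libraries and not the conditions.

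The 6 lists of other pathway genes, chosen with earlier results of these data known, held 57 names, of which 40 were tested. Of these 40, 4 were called higher and none lower, beside 4.59% and 3.82% of all tested genes. Their median log2 fold was 0.24. The called genes were 3 carriers of serine or glycine and 1 enzyme of the choline branch. That enzyme passed the filter only through the resistant library.

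Carriers of serine and glycine were the list with the highest median, 0.87 over 8 tested genes. Of these, 3 were called higher and none lower, beside 4.59% and 3.82% of all tested genes. SLC6A9, the glycine transporter GLYT1, had 5.58 FPKM in parental cells and 16.5 in the clone (log2 fold 1.41). SLC1A4, which carries serine and alanine, had 8.99 and 24.2 FPKM (1.34). SLC1A5, a glutamine and neutral amino acid exchanger that also takes serine, had 33.3 and 73.0 FPKM (1.11), or 0.997 with the libraries scaled to the same total. SLC38A1 and SLC38A2, sodium-coupled carriers of small neutral amino acids, were the most abundant of the list but were not called, at 69.3 and 134 FPKM and at 183 and 208. SFXN1, the mitochondrial serine carrier, had 14.1 and 21.6 FPKM (0.58).

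Other enzymes of serine and glycine showed no common direction, with 4 of 8 above 0 and a median of 0.17. DMGDH, the mitochondrial dimethylglycine dehydrogenase, was called higher, at 0.627 and 3.93 FPKM (log2 fold 1.60), and passed the filter only through the resistant library. DLD, the shared dehydrogenase of the glycine cleavage system and of the keto acid dehydrogenases, had 51.7 and 47.4 FPKM. GCSH, the lipoyl carrier protein of the same system, had 18.2 and 29.9 FPKM, and SARDH, which oxidises sarcosine, had 13.8 and 9.89.

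Genes of folate supply had a median of -0.34 over 7 tested, with 3 above 0, 4 below and none called. SLC25A32, the carrier of folate into mitochondria, had 7.90 FPKM in parental cells and 14.6 in the clone (log2 fold 0.81), the highest of that list. FPGS, which adds the glutamate tail that keeps folate in the cell, had 27.4 and 38.6 FPKM, while GGH, which removes it, had 27.6 and 18.3.

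The enzymes that convert folate further or spend its carbon were not called either. The 5 tested genes of other folate conversion had a median of -0.28, with MTHFSD at 7.68 and 6.15 FPKM, and MTFMT, which formylates the mitochondrial initiator tRNA, at 4.23 and 4.36. Of the 4 users, thymidylate synthase TYMS had 46.7 FPKM in parental cells and 35.9 in the clone, the purine enzyme GART had 52.8 and 45.9, and the purine enzyme ATIC 65.2 and 82.3. Their median was -0.19. So the users, like the genes of folate supply, had a median below 0, unlike the serine pathway and the mitochondrial enzymes, and that difference was not tested.

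Methionine cycle and transsulfuration genes had a median of 0.39 over 8 tested, with none called and 7 above 0. MAT2A, which makes S-adenosylmethionine, had 170 and 183 FPKM, and AHCY, which clears S-adenosylhomocysteine, had 60.0 and 70.1. MAT2B, the regulatory subunit of that synthetase, had 38.3 and 27.3 FPKM, the only tested gene of the list below 0.

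**Figure D4:**
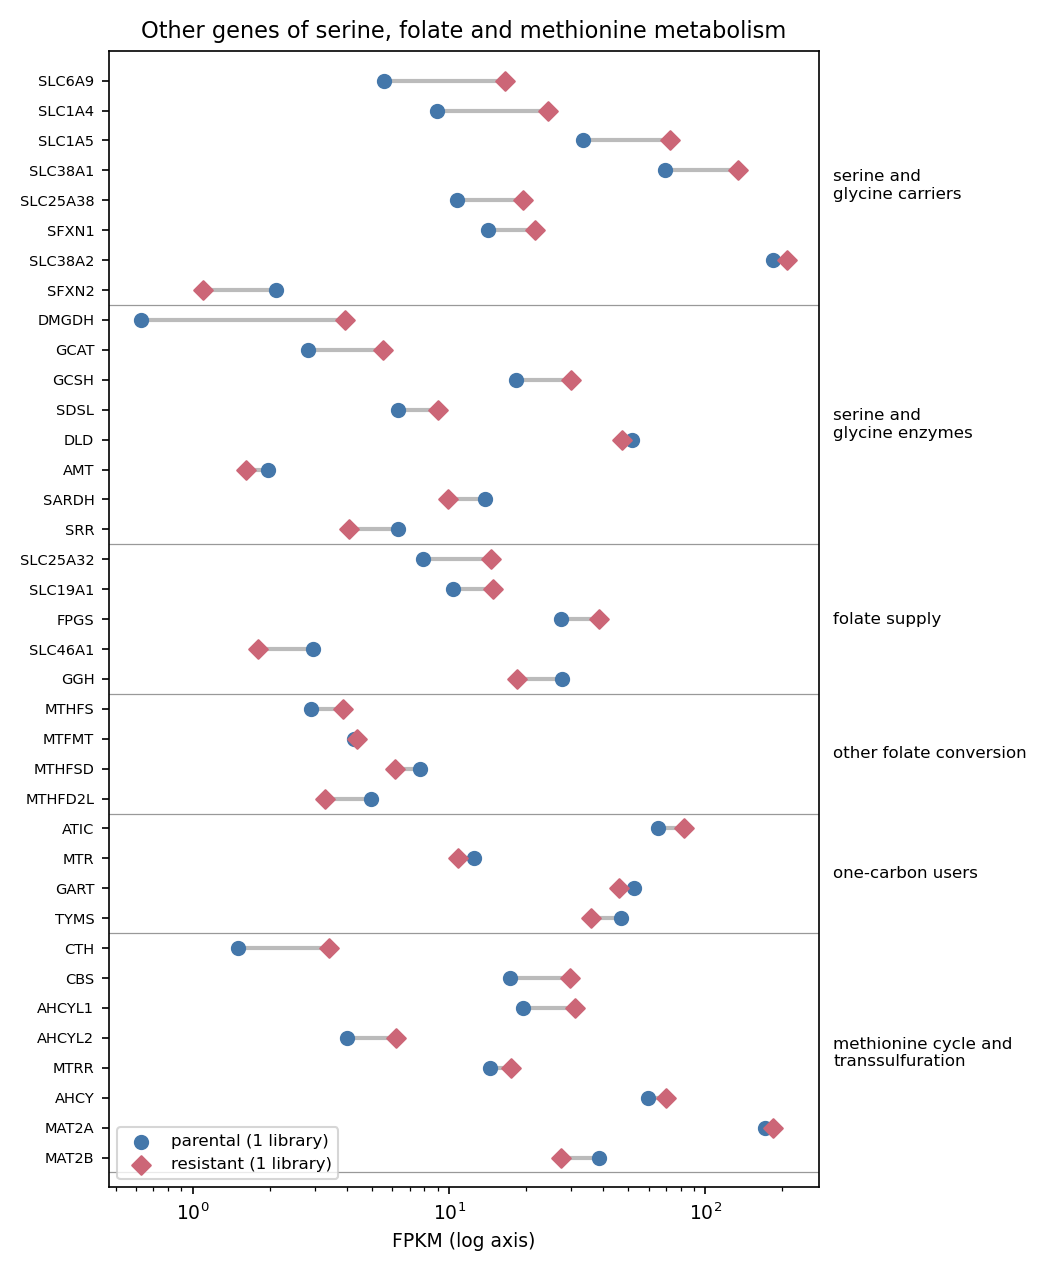
FPKM on a log axis of 37 of the 40 tested genes of the 6 pathway lists, with a circle for the parental and a diamond for the resistant library (1 library each) and genes ordered by fold within each list. In the carriers 7 of 8 diamonds lie to the right, while 3 of 4 users have the diamond on the left. The 5 genes drawn for folate supply are split, with 3 diamonds to the right and 2 to the left.

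ATF4 and its other targets were read beside the enzymes because several of the 9 are known ATF4 targets. Both gene lists were chosen with earlier results of these data known, so their counts give no independent support. ATF4 mRNA itself had 128 FPKM in parental cells and 179 in the clone (log2 fold 0.48), under the threshold. ATF4 protein is controlled mainly through translation, which was not measured. A list of 14 genes held ATF4, its upstream kinases and partner factors, and also MYC and some genes outside these roles. Of the 14, 5 were called higher and none lower (median 0.48), beside 4.59% and 3.82% of all tested genes. The called genes were MYC (4.99 and 26.2 FPKM), ATF3, CEBPB (26.2 and 70.3), ATF5 (10.5 and 27.2) and DDIT3 (32.9 and 72.4). The kinase PERK, encoded by EIF2AK3 and chosen after its value was seen, was at the other end, with 16.4 and 8.56 FPKM.

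Of 16 tested ATF4 targets outside this pathway, 7 were called higher and none lower, with a median of 0.84. The shares over all tested genes were 4.59% higher and 3.82% lower, but this list too was chosen with earlier results of these data known. ASNS, asparagine synthetase, had 61.9 and 143 FPKM (log2 fold 1.20). PYCR1, the mitochondrial enzyme of proline synthesis, had 26.7 and 61.4 FPKM (1.17), and PCK2, mitochondrial phosphoenolpyruvate carboxykinase, had 14.8 and 30.7, a value just past the threshold that fell short of 2-fold when the libraries were rescaled. TRIB3, PPP1R15A, SESN2 and VLDLR were the other called genes. The amino acid carriers SLC3A2 and SLC7A5 had 161 and 279 FPKM and 152 and 214 FPKM, and were not called. The median of the 9 enzymes, 0.62, lay between those of these lists, and a shared cause was not tested.

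The cell line was checked against glial and mesenchymal genes. Of 9 such names 6 were listed, led by SPARC (2854 FPKM in parental cells and 3856 in the clone), VIM (632 and 804) and CD44 (83.1 and 161), none of them called. FN1, fibronectin, was called higher, at 4.45 and 10.3 FPKM, a call lost when the libraries were rescaled, and nestin, NES, was called lower, at 33.7 and 5.08. The defining glial markers GFAP and S100B were looked for and, like TNC, were not among the listed genes. Of 10 genes of blood, endothelial and epithelial cells, 5 were listed, and these summed to 4.83 FPKM in parental cells and 1.75 in the clone. FPKM of all genes summed to 299594 and 323932.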

How the data were processed

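Per the file headers, the deposited values are FPKM, 1 column per library, and the authors' scaling is unknown. A log2 ratio by the authors was used only for a check, and the deposited p-values and q-values belong to a comparison by the authors whose test is not named. Library preparation used a stranded mRNA kit, per the labels' protocols. Aligner, quantifier, annotation and use of strand: not given in the sources used here. That log2 column by the authors equalled log2 of the FPKM ratio within 0.001 for all 15310 genes above 0 in both libraries. Members and gene lists were chosen with earlier results of these data known.

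Folds used a pseudocount of 1 FPKM, which understates the change of low genes, and a filter of 1 FPKM in either library. No test was run, because each group had 1 library, and precision is unknown without depth. Named genes were all 9 members, the called genes of each list, up to 3 further genes of each list with the highest FPKM, and ATF4, SLC25A32 and MTHFD2L. A few list genes enter the counts and medians but are not reported here by name. Coordinates, exons and copies came from GENCODE 29 (GRCh38), whose gene lay within the table's locus for 8 of the 9 members. Copies were aligned with BLAST 2.17.0 at a minimum of 90% identity over 100 bases. Tables were made with Python 3.11.15 and pandas 2.3.3. Alternatives were a threshold of 1.5-fold, a pseudocount of 0.1, no filter, a filter of 5 FPKM, and 3 rescalings.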

Additional observations from a re-analysis of the deposited data

How the results depend on the processing

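All 9 enzymes kept a positive log2 fold under each alternative that gave them a value. Little was left for some: scaling to total FPKM put SHMT1 at 0.0097, ALDH1L2 at 0.020 and MTHFD1 at 0.042. With the 2-fold threshold kept, MTHFD1L was the only one of the 9 called under each alternative. At 1.5-fold, 5 members were called higher, 12 other pathway genes were higher and 1 lower, and 2020 of all tested genes were higher and 1674 lower. With a pseudocount of 0.1 FPKM, 1076 of all tested genes were higher and 1029 lower. A filter of 5 FPKM, which removes ALDH1L2, left 466 of all tested genes higher and 282 lower, and a member median of 0.74. The median of all tested genes was -0.011 with median scaling, -0.026 with upper quartile scaling and -0.056 with scaling to total FPKM, the last giving a member median of 0.51. The latter pair of scalings was chosen after seeing the data. Under total scaling SLC1A5 came to 0.997, just under the threshold, and PCK2 (0.89 to 0.95) and FN1 (0.95 to 0.99) lay under it with every rescaling. No paired analysis was possible because each group had 1 library. Depth was unknown, so ALDH1L2 at about 1 FPKM is read as a level only.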

Other observations

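Values that fall outside the naming rule, chosen after they were seen, include the transsulfuration enzymes. CBS had 17.3 FPKM in parental cells and 29.7 in the clone (log2 fold 0.75), and CTH had 1.49 and 3.38 (0.81). The mitochondrial glycine carrier SLC25A38 had 10.7 and 19.3 FPKM (0.80), and SFXN2, a relative of the serine carrier SFXN1, had 2.10 and 1.09 (-0.57). GCAT, which splits aminoketobutyrate into glycine and acetyl-CoA, had 2.81 and 5.52 FPKM (0.77).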
